A study of Saccharomyces cerevisiae with 24 samples.

Results

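The regions described here are the 5′ leaders of budding yeast (Saccharomyces cerevisiae) messages, read as ribosome footprints at positions 10 or more codons upstream of the annotated start codon. A leader was included where its transcript had a mean of at least 20 RPM (reads scaled to a library total of 1000000) over the coding sequence in 8 libraries, which gave 2856 leaders, out of 4383 transcripts with such positions and 6663 transcripts in all. Members ran from 1 to 256 codon positions in length, with a median of 31. Just inside the threshold were TMH18 at 20.0 RPM and RCL1 at 20.03 RPM, and just outside were HRT1 at 19.98 RPM and CHS7 at 19.97 RPM.

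The series profiled ribosome footprints made with RNase I in 24 libraries, and 8 of them, from the HEL2-FTP strain, have values by position. That strain is MATa with the markers ade2, his3, leu2, trp1, ura3 and can1, its HEL2 gene carries the FTP tag (HEL2-FTP::natNT2), and it was grown in YPD. Lysates were split into a cytosolic fraction and a membrane fraction, taken up in 1% Triton X-100, and each fraction gave 2 libraries of footprints recovered with Hel2 (IP) and 2 input libraries of all footprints. The labels do not say whether replicates came from separate cultures, so p-values measure only the spread between these libraries. No untagged strain was used here, so every IP and every input comes from cells with tagged Hel2. The other libraries of the series, from the SRP72p and GIT1p strains, have no leader values. They served only to choose membrane-enriched transcripts, as described below.

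Ribosomes scan a leader from the capped end, and footprints there usually mark short upstream open reading frames (uORFs) or starts at codons other than AUG. In yeast the best studied case is GCN4, where uORFs set how much of the transcription factor is made. Hel2 is the ubiquitin ligase that recognises collided ribosomes, so the comparison of IP with input asks where along a message Hel2-bound ribosomes lie.

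Depth was 22.1 to 38.9 M reads per library, estimated from the worth of 1 read. The median leader clear of other genes on its strand held only 0.0256 RPM on average, and 321 of the 2856 leaders had no read in any library. The limit that a count of 0 allows, set at 3 reads, was 0.0772 to 0.135 RPM. No leader sequence was used here, so upstream reading frames were not located.

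Leaders that are not clear of other genes, or have no coordinates, held most of the RPM in the inputs, while clear leaders, which overlap no other gene on their strand, held most of it in IP. Of all leader RPM, clear leaders had 1349 of 2431 and 1332 of 2444 RPM in cytosolic IP, against 338 of 2277 and 315 of 2287 RPM in cytosolic input. The 10 leaders with the largest mean RPM held 40.3% to 77.4% of the sum in each library. YDR154C, without coordinates in the gene table, came first with a mean of 628.6 RPM. It had 381 and 390 RPM in cytosolic IP, against 907 and 951 RPM in cytosolic input, and 404 and 362 RPM in membrane IP, against 832 and 801 RPM in membrane input. Its leader over coding ratio was 63.4% and 70.7% in cytosolic IP, against 62.4% and 72.5% in cytosolic input, so leader and coding footprints were lower in IP by about the same factor. MRP13, which encodes a mitochondrial ribosomal protein, came next with 261 RPM, and its leader runs over the coding sequence of the ribosomal protein gene RPL11B. YDR133C (140 RPM), YFR052C-A (47.8 RPM) and YMR173W-A (31.2 RPM) have no coordinates. For these leaders and that of YDR154C, overlap with other genes could therefore not be checked. Their footprints may be shared with neighbouring genes, and this was not tested. CPR3 (42.1 RPM), YCK1 (32.3 RPM) and COG1 (21.2 RPM) overlap CFF1, SPL2 and EDC1. GCN4 (50.6 RPM) and PDR5 (28.7 RPM) were the only members of this top 10 whose leaders were clear of other genes. The 5 largest mean ratios were those of MRP13 (934%), YDR133C (342%), YFR052C-A (86.0%), COG1 (84.9%) and YPR170W-A (68.6%), and none of these leaders is clear.

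Leaders were therefore described by class, a division made after the values were seen. Clear leaders, 2768 in number, overlap no other gene on the same strand. Another 76 overlap a protein-coding sequence on the same strand, 3 (POR1, ERV14 and RSM26) overlap a tRNA gene, and 9 have no coordinates. Strand was read from the systematic names and leaders were taken as unspliced.

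In clear leaders, footprints were a larger share of the message in IP than in input. The summed leader RPM was 0.211% and 0.205% of the summed coding RPM in cytosolic IP, against 0.0424% and 0.0395% in cytosolic input. The membrane fraction had 0.185% and 0.173% in IP, against 0.0453% and 0.0427% in input. The means differed 5.08-fold in the cytosol and 4.07-fold at the membrane, and every IP library lay above every input library. The exact two-sided permutation p was 0.33 within a fraction and 0.0556 over both fractions (n = 2 libraries a group), and these are the smallest values this design allows. Without the 10 clear leaders with the most footprints, which held 17.3% to 20.9% of the sum, the folds were 5.00 and 4.07.

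Over all 2856 leaders the ratio was 0.367% and 0.363% in cytosolic IP, against 0.277% and 0.279% in cytosolic input. At the membrane it was 0.335% and 0.317% in IP, against 0.255% in each input, so the folds were only 1.31 and 1.28 (exact permutation p = 0.33 within a fraction and 0.0556 over both, the smallest possible). The 76 leaders over another coding sequence ran the other way, with 1.98% and 1.94% in cytosolic IP, against 4.15% and 4.21% in cytosolic input. At the membrane they had 1.70% and 1.76% in IP, against 3.26% and 3.58% in input. The 3 leaders over tRNA genes averaged 5.50% in cytosolic IP, against 0.820% in cytosolic input. The 9 without coordinates averaged 45.4% in cytosolic IP, against 43.9% in cytosolic input, and 36.7% in membrane IP, against 40.2% in membrane input (exact permutation p = 0.611 over both fractions).

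**Figure D1:**
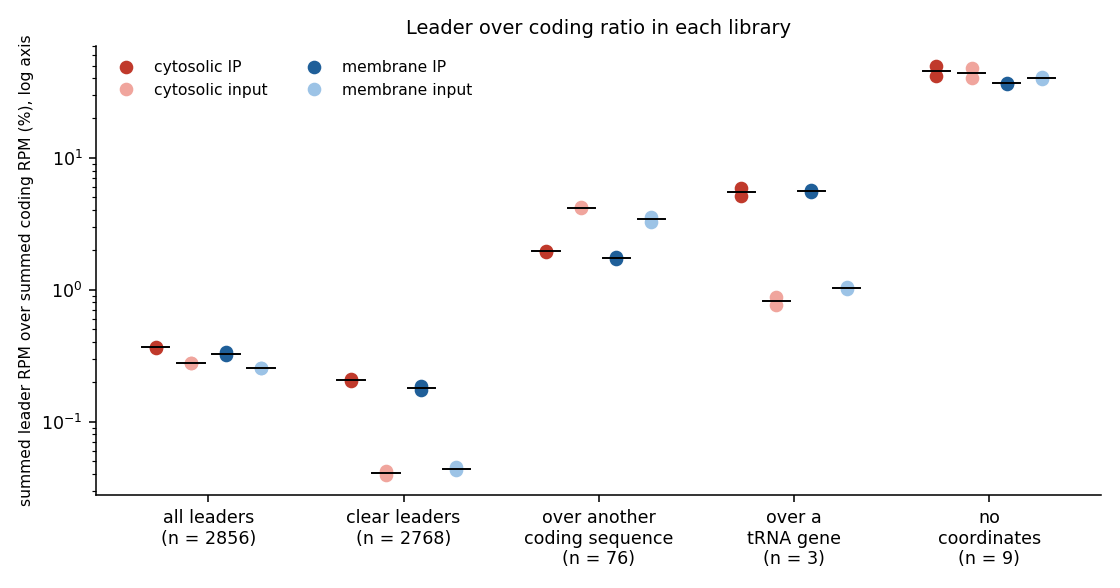
Summed leader RPM over summed coding RPM (percent, log axis) for each class of leader, with a point for each library and a bar at the mean of 2. Clear leaders sit near 0.2% in the 4 IP libraries and near 0.04% in the 4 inputs, while leaders over another coding sequence are higher in the inputs.

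Much of this difference followed the messages that Hel2 IP recovered. Clear leaders summed to 1349 and 1332 RPM in cytosolic IP, against 338 and 315 RPM in cytosolic input, and to 1206 and 1137 RPM in membrane IP, against 359.7 and 339 RPM in membrane input. If each leader had changed by the same factor as its own coding sequence, the sum would have been 2.52-fold higher in cytosolic IP than in input and 2.04-fold higher in membrane IP. The sums were 4.10-fold and 3.35-fold higher. Leader footprints were thus 1.63 times what the coding footprints of the same messages gave in the cytosol, with 1.58 to 1.67 over the 4 pairs of an IP and an input library. At the membrane the value was 1.65, with 1.55 to 1.74 over the pairs. It ranged from 1.48 to 1.8 over 5 classes of coding level and from 1.57 to 2.14 over 5 classes of leader length. No test was run on this quantity.

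Clear leaders were sparsely covered along their whole length. Per position, footprints at codons -19 to -10 were 2.99% and 2.91% of the coding density of the same messages in cytosolic IP, against 0.74% and 0.72% in cytosolic input. Between codons -79 and -60 they were 3.28% and 3.41% in cytosolic IP, against 0.58% and 0.55% in cytosolic input. Beyond codon -150, in 151 leaders, they were 1.76% and 1.79% in cytosolic IP, against 0.87% and 0.90% in cytosolic input. The IP libraries were above the inputs in each of 9 distance classes in both fractions.

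A per-leader test was made on log2 of the leader over coding ratio (limma, 0.1 RPM added to each sum, Benjamini-Hochberg adjusted p below 0.05). It covered 407 leaders of the whole set of transcripts with a mean of at least 0.5 RPM, and 356 of the 2856 members passed that minimum. A leader could pass it through the IP libraries alone, so the counts describe the leaders tested and not all members. The p-values of such leaders rest in part on the values that let them pass. The ratio was higher in cytosolic IP than in input for 142 of the 356 members and lower for 29, where 38.6% of all leaders tested were called higher and 9.83% lower. At the membrane 149 were higher and 27 lower, where 41.3% and 9.09% of all leaders tested were called. The median log2 change over members was 0.59 in the cytosol and 0.53 at the membrane, and 0.53 and 0.52 over all leaders tested. Among the 301 clear members, 126 were higher and 12 lower in cytosolic IP, and 131 were higher and 10 lower in membrane IP. Of these, 95 were higher in both fractions, which is 75.4% of the cytosolic and 72.5% of the membrane calls. Among the 45 tested leaders over another coding sequence, 12 were higher and 17 lower in cytosolic IP. The calls over both directions were 171 in the cytosol and 176 at the membrane. Without cytosolic IP replicate 1 or 2 the cytosolic calls were 110 and 106, and without membrane IP replicate 1 the membrane calls were 105.

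The split between directions depends on how values near 0 and the library level are treated. When each library was centred on its median leader, the members called were 71 higher and 48 lower in cytosolic IP, and 93 higher and 50 lower in membrane IP. Centring moved the median change over all leaders tested from 0.53 to 0.14 in the cytosol and from 0.52 to 0.17 at the membrane. With 0.5 RPM added in place of 0.1, the cytosolic calls were 104 higher and 112 lower, since a constant added to a leader near 0 lowers its ratio wherever the coding sum rises. Of all 407 leaders tested, 119 were higher and 130 lower at that setting. With the added constant scaled to each transcript's coding level and no minimum, 320 of 2535 members with any read were called higher and 31 lower in cytosolic IP (10.7% and 1.35% of all leaders tested), and 221 higher and 18 lower in membrane IP (7.69% and 0.736%).

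**Figure D2:**
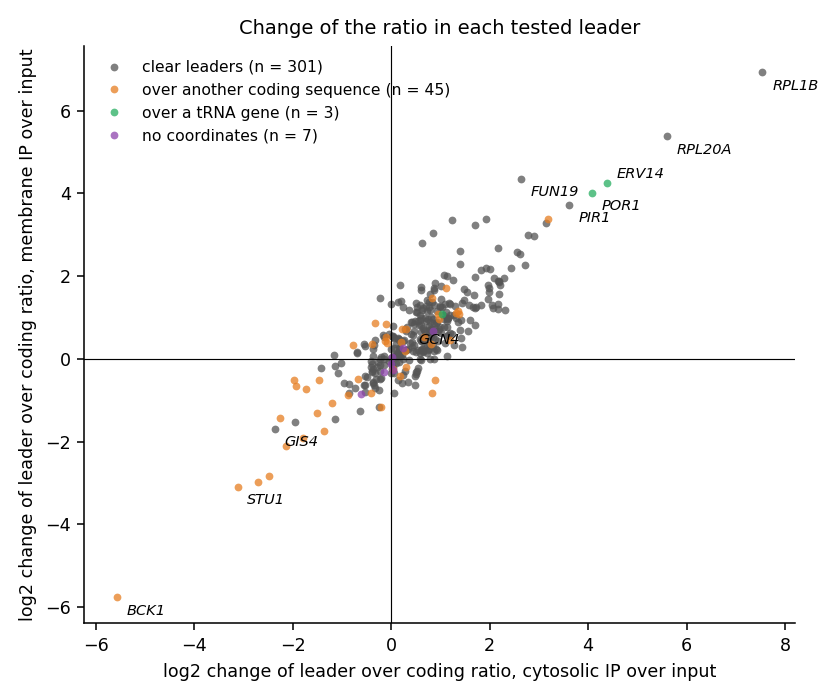
Log2 change of the leader over coding ratio for the 356 members tested, IP over input, in the cytosol (horizontal axis) and at the membrane (vertical axis), coloured by class. RPL1B (7.54 and 6.93) and RPL20A (5.60 and 5.39) lie at the upper right, and BCK1 (-5.57 and -5.75), whose leader overlaps MRPL49, at the lower left.

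Some of the clear leaders tested carried most of their footprints in a narrow block. Of the 276 clear members tested that had at least 45 positions, 66 had at least 50% of their RPM in 1 window of 9 codons, about the length of a footprint, and the median share of the best window was 36.8%.

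GCN4 (YEL009C, chromosome V, 138918 to 139763) had the most footprints of any clear leader. It held 98.8 and 82.7 RPM in cytosolic IP, against 29.1 and 23.2 RPM in cytosolic input, and 69.7 and 62.2 RPM in membrane IP, against 21.2 and 18.0 RPM in membrane input. The IP and input libraries did not overlap in either fraction. The leader rose 3.47-fold and the coding sequence 2.72-fold in the cytosol, and 3.36-fold and 2.86-fold at the membrane. The ratio was 8.39% and 7.36% in cytosolic IP, against 6.60% and 5.74% in cytosolic input, a log2 change of 0.35 ± 0.23 (SE, adjusted p = 0.229). At the membrane the log2 change was 0.23 ± 0.23 (adjusted p = 0.424). The GCN4 leader in the files starts at codon -65, and 40.4% of its IP footprints lay between codons -54 and -46. Any footprints further upstream are outside these values, so the GCN4 sums and ratios may cover only part of its leader. Coverage was lower nearer the start codon and rose again towards codon -12.

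PDR5 (YOR153W, chromosome XV, 619840 to 624375) encodes a multidrug transporter of the ABC family. Its leader held 55.1 and 46.5 RPM in cytosolic IP, against 5.37 and 5.12 RPM in cytosolic input, and 43.4 and 49.8 RPM in membrane IP, against 9.65 and 14.7 RPM in membrane input. All 4 IP libraries were above all 4 inputs. The coding sequence was 8.67-fold higher in cytosolic IP and the leader 9.69-fold, so the ratio changed by a log2 of 0.13 ± 0.26 (SE, adjusted p = 0.704), and by 0.50 ± 0.26 at the membrane (adjusted p = 0.133). The footprints formed a block that peaked at codon -23 in 7 of 8 libraries.

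UTH1, a gene of the SUN family, held 20.8 and 19.0 RPM in cytosolic IP, against 8.77 and 7.15 RPM in cytosolic input, and 23.4 and 20.1 RPM in membrane IP, against 15.7 and 13.1 RPM in membrane input. Libraries of IP and input did not overlap within a fraction, but the ratio was not called (log2 change 0.17, adjusted p = 0.617, and 0.10, adjusted p = 0.754).

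PCL5 (YHR071W, chromosome VIII, 237004 to 237693) encodes a cyclin of the kinase Pho85 that acts in the turnover of Gcn4. Its leader held 20.4 and 24.0 RPM in cytosolic IP, against 4.71 and 5.67 RPM in cytosolic input, and 15.3 RPM in each membrane IP, against 4.52 and 5.36 RPM in membrane input. Leader footprints equalled 20.8% and 24.4% of the coding sum in cytosolic IP, against 12.9% and 15.6% in cytosolic input. The ratio rose by a log2 of 0.65 ± 0.20 in the cytosol (SE, adjusted p = 0.0217) and changed by 0.17 ± 0.20 at the membrane (adjusted p = 0.489), and the difference between fractions was not called (-0.47, adjusted p = 0.526). Codons -83 to -75 held 65.8% of the IP footprints.

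HOL1 (YNR055C, chromosome XIV, 728426 to 730186) encodes a polyamine transporter with a known uORF. Its leader held 12.2 and 15.4 RPM in cytosolic IP, against 1.07 and 0.844 RPM in cytosolic input, and 26.2 and 19.4 RPM in membrane IP, against 2.61 and 1.56 RPM in membrane input. IP libraries lay clear of inputs throughout, with 14.4-fold and 10.9-fold differences in leader RPM and 7.52-fold and 4.09-fold differences in coding RPM. The ratio rose by a log2 of 0.82 ± 0.27 in the cytosol (SE, adjusted p = 0.0289) and 1.39 ± 0.27 at the membrane (adjusted p = 0.00177). Although the leader in the files is 241 positions long, codons -71 to -63 held 66.0% of the IP footprints.

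**Figure D3:**
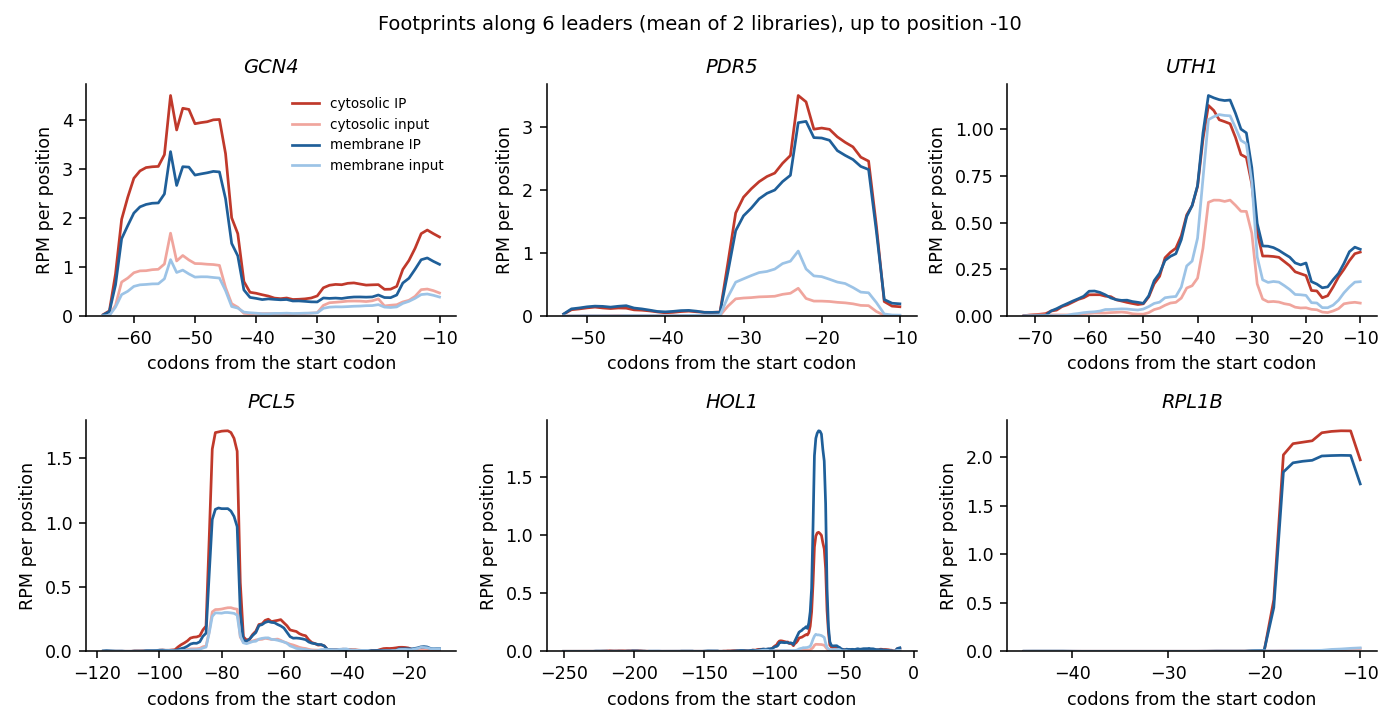
RPM at each codon of 6 clear leaders, up to codon -10, as the mean of 2 libraries in each group. GCN4, PDR5, UTH1, PCL5 and HOL1 have their block at about the same codons in IP and input, and RPL1B has a block at codons -18 to -10 that is near 0 in both inputs.

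The other clear leaders among the 15 with the most footprints were mixed in their calls. The sensor gene WSC2 had 11.2 and 11.8 RPM in cytosolic IP, against 0.585 and 0.466 RPM in cytosolic input, and its ratio rose by a log2 of 1.35 (adjusted p = 0.00125) in the cytosol and 0.90 (adjusted p = 0.0121) at the membrane. The potassium transporter gene TRK1 rose in the cytosol (0.74, adjusted p = 0.0187) but not beyond the threshold at the membrane (0.45, adjusted p = 0.109). SUN4, a cell wall gene, rose in both fractions (0.84 and 0.96), as did SNQ2, which encodes another ABC transporter (0.88 and 1.83), and TDA3 (1.30 and 1.29). RSP5, which encodes a ubiquitin ligase, rose in the cytosol (0.64, adjusted p = 0.0416). The ratios of SRL1 (0.02 and -0.25) and ECL1 (-0.50 and -0.44) were not called.

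**Figure D4:**
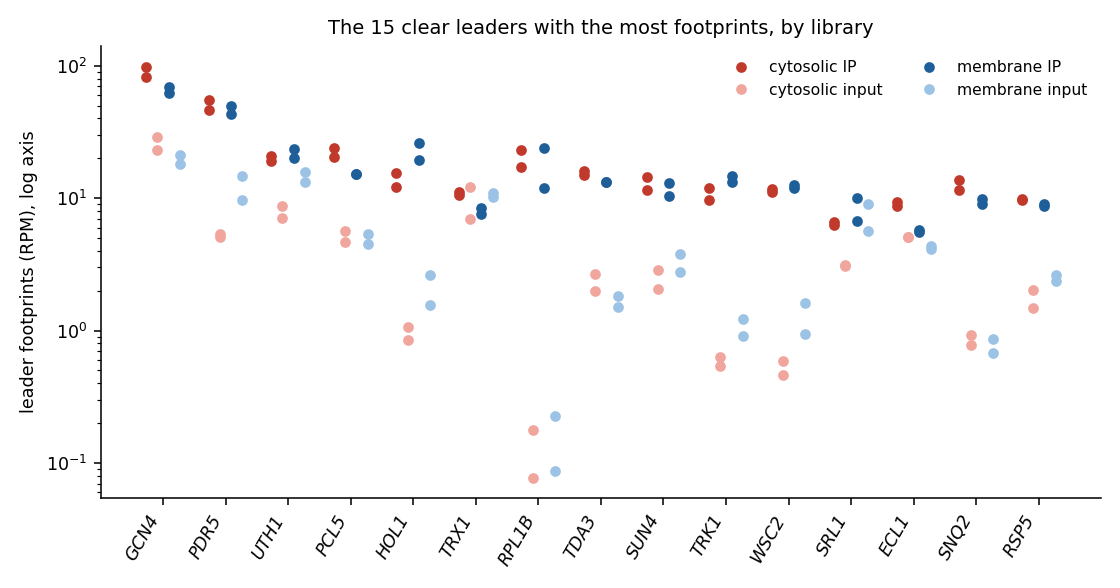
Leader RPM (log axis) of the 15 clear leaders with the largest mean, a point for each library. In 13 of them every IP library is above every input library of its fraction, and the exceptions are TRX1 and SRL1, where 78.4% of all 407 leaders tested are higher in this way.

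The 2 largest rises of the ratio belonged to leaders that were almost empty in input. Both leaders reached the minimum of 0.5 RPM only through their IP libraries. Their p-values thus rest in part on the values that let them into the test. RPL1B (YGL135W, chromosome VII, 254641 to 255294), a gene of a large-subunit ribosomal protein, held 17.2 and 22.9 RPM in cytosolic IP, against 0.0776 and 0.176 RPM in cytosolic input, and 24.1 and 11.9 RPM in membrane IP, against 0.228 and 0.0870 RPM in membrane input. The leader was 158-fold higher in cytosolic IP while the coding sum was 0.484 of that in input, and the ratio rose by a log2 of 7.54 ± 0.42 (SE, adjusted p = 4.71e-07) and by 6.93 ± 0.42 at the membrane (adjusted p = 4.27e-07). Nearly all of it, 97.3%, lay at codons -18 to -10. Coding reads of RPL1B may be shared with its near-identical copy RPL1A, and how the authors assigned such reads is not given in the sources used here. The leader of RPL1A has only 8 positions, with no read in any IP library and 0.0224 RPM in cytosolic input replicate 1.

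RPL20A, also of the large subunit, showed the same kind of block at codons -23 to -15, which held 90.9% of its IP footprints. It had 4.98 and 4.13 RPM in cytosolic IP, against 0.103 and 0.155 RPM in cytosolic input, and 4.98 and 3.40 RPM in membrane IP, against 0.186 and 0.0451 RPM in membrane input. Its ratio rose by 5.60 ± 0.38 and 5.39 ± 0.38 (SE, log2, adjusted p = 1.17e-06 and 8.74e-07). The leader of its copy RPL20B averaged 0.248 RPM, under the minimum.

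PIR1, a gene of an O-glycosylated cell wall protein, had 7.04 and 7.44 RPM in cytosolic IP, against 1.01 and 0.958 RPM in cytosolic input. Its ratio rose by a log2 of 3.61 in the cytosol and 3.73 at the membrane, and its footprints were spread along the leader, with 20.4% in the best IP window. FUN19 had 1.35 and 1.73 RPM in membrane IP, against 0 and 0.0451 RPM in membrane input (log2 change 4.35, adjusted p = 4.27e-07), where the limit of 3 reads was 0.112 and 0.135 RPM. Its membrane inputs were thus far under the minimum of 0.5 RPM that its mean had to reach.

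All 3 leaders over a tRNA gene, a class formed after values were seen, were tested and had a higher ratio in IP in both fractions. Of all leaders tested, 38.6% were called higher in the cytosol and 41.3% at the membrane. RSM26, named after its values were seen, rose by 1.03 in the cytosol (adjusted p = 0.0096) and by 1.08 at the membrane (adjusted p = 0.00692). POR1, which encodes the mitochondrial porin, had 31.1 and 32.5 RPM in cytosolic IP, against 3.12 and 2.83 RPM in cytosolic input, and 30.8 and 23.8 RPM in membrane IP, against 2.83 and 2.21 RPM in membrane input, a log2 change of the ratio of 4.08 and 4.02. A tRNA gene on the same strand covers its leader from codon -85 outwards, while the IP footprints peaked at codon -66. In ERV14, the gene of a cargo receptor of COPII vesicles, the ratio rose by 4.38 and 4.24, and 99.2% of the IP footprints lay at the far edge of the leader, at codons -81 to -73, where a tRNA gene begins at codon -80. Whether these reads come from the messages or from tRNA was not tested.

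TRX1, the gene of a thioredoxin, has a clear leader that ends close to another gene. Its leader had 11.2 and 10.7 RPM in cytosolic IP, against 12.1 and 6.96 RPM in cytosolic input, so the leader itself overlapped between groups, and the ratio rose by a log2 of 2.16 (adjusted p = 5.35e-05) as coding footprints fell to 0.265 of input. The far edge of that leader, which holds 85.8% of its IP footprints, is 26 nt from the coding sequence of PDC1 on the same strand. Whether these footprints come from the TRX1 or the PDC1 message was not tested.

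At the main settings, falls of the ratio were mostly found where the leader lies over another coding sequence. With each library centred on its median, 26 of 301 clear members and 21 of 45 over another coding sequence were lower in cytosolic IP. At the membrane 27 and 21 were. Of all 407 leaders tested at that setting, 64 were lower in cytosolic IP and 67 in membrane IP. BCK1, which encodes a kinase of the cell wall integrity pathway, had 0.692 and 1.07 RPM in cytosolic IP, against 3.43 and 3.07 RPM in cytosolic input, while its own coding sum was 13.8-fold higher in IP. The ratio fell by 5.57 on the log2 scale (adjusted p = 5.07e-08), and these positions belong in part to MRPL49. STU1 over RIB1 fell by 3.12, SLA1 over LDB7 fell by 2.71, and MSR1 over HXT4 fell by 2.49. GUT1 over GOS1 fell by 2.14 in the cytosol and by 2.12 at the membrane. These 5 transcripts all had higher coding sums in IP than in input in both fractions.

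Among clear leaders the falls were smaller and the leader itself did not always fall. GIS4 had 0.618 and 0.586 RPM in cytosolic IP, against 0.822 and 1.20 RPM in cytosolic input, and its ratio fell by 2.37 in the cytosol and by 1.69 at the membrane (adjusted p = 2.33e-05 and 0.000266). SNF3, a glucose sensor gene, had more leader footprints in IP, 1.26 and 0.820 RPM, against 0.264 and 0.155 RPM in input, but its coding sum was 14.8-fold higher and the ratio fell by 1.95. HKR1, a mucin-like sensor gene, behaved likewise, with a 19.6-fold higher leader and a 30.2-fold higher coding sum in cytosolic IP (log2 change of the ratio -1.42, adjusted p = 0.0176). These folds hold no added constant, whereas the tested ratios hold the 0.1 RPM added to each sum. Part of the fall in SNF3 and HKR1 comes from that constant, which lowers the ratio of low leader sums where the coding sum rises. In PPZ1, a phosphatase gene, the ratio fell by 1.15 in the cytosol and by 1.45 at the membrane, while the leader sum was 2.07-fold and 1.28-fold higher in IP.

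A list of 26 genes with reported uORFs had 13 members, 12 of them clear, and 6 of these passed the minimum. In the cytosol 3 of the 6 had a higher ratio in IP than in input (HOL1, CLN3 and IMD4), and at the membrane 2 did (HOL1 and IMD4), where 38.6% and 41.3% of all leaders tested were called higher. The median log2 changes were 0.79 and 0.63, against 0.53 and 0.52 over all leaders tested. With the scaled constant and no minimum, 2 of 11 were higher in the cytosol and 1 of 11 at the membrane, where 10.7% and 7.69% of all leaders tested were. Their summed ratio was 2.62% and 2.38% in cytosolic IP, against 1.69% and 1.46% in cytosolic input, and GCN4 held most of that sum. Without GCN4, a setting chosen after seeing the data, it was 0.741% and 0.833% in cytosolic IP, against 0.148% and 0.192% in cytosolic input. Relative to the coding change of the same messages, the leaders of this list gave 1.41 times the expected sum in cytosolic IP and 1.42 times in membrane IP, and 2.15 and 2.38 times without GCN4, where all clear leaders gave 1.63 and 1.65.

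CLN3, the gene of a G1 cyclin, had 8.73 and 9.22 RPM in cytosolic IP, against 0.378 and 0.534 RPM in cytosolic input, and its ratio rose by a log2 of 1.24 (adjusted p = 0.00345) in the cytosol and changed by 0.60 (adjusted p = 0.0849) at the membrane. IMD4, which encodes an IMP dehydrogenase with close copies in the genome, had 1.43 and 1.81 RPM in cytosolic IP, against 0.197 and 0.149 RPM in cytosolic input, and rose by 2.91 and 2.97. Its cytosolic inputs were under the minimum of 0.5 RPM that its mean had to reach. The calls of IMD4 thus rest in part on the IP values that let it pass. LEU4 (0.77, adjusted p = 0.0558) and PET111 (0.05, adjusted p = 0.92) were not called in the cytosol. The leaders of URE2, FOL1, MKK1 and TIF4631 averaged 0.167, 0.088, 0.0771 and 0.0399 RPM, INO2 had a trace in membrane IP replicate 1 only, and SCO1 had no read.

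For ALA1 and GRS1, aminoacyl-tRNA synthetase genes whose second protein form starts upstream at another codon, the leaders averaged 0.247 and 0.43 RPM, under the minimum. ALA1 had 0.449 and 0.307 RPM in cytosolic IP, against 0 and 0.255 RPM in cytosolic input. Of 5 members listed for control through the leader, NCE102 (0.23, adjusted p = 0.571) and BOI1 (0.43, adjusted p = 0.347) passed the minimum and were not called in the cytosol, and FLO8, PAB1 and HAC1 averaged 0.459, 0.065 and 0.0287 RPM.

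Leaders of abundant housekeeping messages held few footprints relative to their coding sums, with leader length not taken into account. The 16 clear leaders of glycolysis and fermentation genes summed to 0.00506% and 0.00541% of their coding RPM in cytosolic IP, against 0.00136% and 0.00108% in cytosolic input. Of these 16, 3 passed the minimum and were called higher in both fractions, where 38.6% and 41.3% of all leaders tested were. With the scaled constant and no minimum, 5 of the 16 were called higher in cytosolic IP and 3 in membrane IP. The 21 clear leaders of translation factor genes had 0.00260% and 0.00308% in cytosolic IP, against 0.00156% and 0.00101% in cytosolic input, and none passed the minimum. The 125 clear leaders of ribosomal protein genes had 0.0344% and 0.0385% in cytosolic IP, against 0.00348% and 0.00318% in cytosolic input. RPL1B and RPL20A were the 2 that passed the minimum. These 2 had the largest rises of the ratio, and the sum was not taken without them. With the scaled constant and no minimum, 10 of 116 with any read were called higher in the cytosol and 8 at the membrane. The median log2 change of the 116 was 0.07 in the cytosol and 0.11 at the membrane. Over all leaders tested in this way it was 0.19 and 0.18. Among the clear leaders of translocon, oligosaccharyltransferase and PMT genes, 4 of 17 with any read were called higher in the cytosol and 1 at the membrane, and among those of plasma membrane transporter genes 5 of 16 and 2 of 16 were. The shares called higher over all leaders tested were 10.7% in the cytosol and 7.69% at the membrane. None of these lists had a leader called lower, where only 1.35% and 0.736% of all leaders tested were.

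Leader footprints followed coding footprints to the membrane only in part. Transcripts enriched at the membrane, 800 in all, were chosen from inputs of another strain of the series, in which SRP72 was deleted (srp72::HISMX6) and supplied from a plasmid with its own promoter (pRS415-SRP72p-SRP72-V5), and 409 of them have a clear leader here. Their leaders summed to 111 and 103 RPM in membrane input, against 54.2 and 51.0 RPM in cytosolic input, a 2.03-fold difference. Their coding sums would have given 6.84-fold, so the leaders reached 0.297 of that value, with 0.271 to 0.324 over the 4 pairs of libraries. In the other 2359 clear leaders the corresponding value was 0.949, with 0.891 to 1.01 over the pairs. The IP libraries showed the same order, with 0.359 for membrane-enriched transcripts and 0.892 for the rest. As a share of coding RPM, the leaders of the enriched transcripts were 0.143% and 0.136% in membrane input, against 0.506% and 0.440% in cytosolic input.

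In the per-leader test of the inputs, 8 members had a higher ratio at the membrane and 90 a lower one, where 3.44% and 24.6% of all leaders tested were called. With each library centred on its median, 29 were higher and 77 lower, and 37 and 85 over all 407 leaders tested. Of 68 tested clear leaders of membrane-enriched transcripts, 64 were lower and none higher, with a median log2 change of -2.05, and of the 233 others 8 were lower and 4 higher, with a median of -0.03.

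PMA2, which encodes a proton pump, showed the largest fall among clear leaders (-4.24 ± 0.39, SE, adjusted p = 9.43e-06). It had 0.261 and 0.361 RPM of leader footprints in membrane input, against 0.378 and 0.340 RPM in cytosolic input, while its coding sum, which may share reads with PMA1, was 16.7-fold higher at the membrane. ALE1, which encodes an acyltransferase, fell by 3.95, with leaders of 0.149 and 0.135 RPM in membrane input, against 0.0688 and 0.272 RPM in cytosolic input, and a coding sum 15.0-fold higher. The ammonium permease gene MEP2 fell by 3.88. Its leader had 0.671 and 0.746 RPM in membrane input, against 0.516 and 0.893 RPM in cytosolic input, so the leader overlapped between fractions while the coding sum was 15.2-fold higher.

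Other named clear leaders also had a lower ratio in membrane than in cytosolic input. PDR5 was 2.32-fold higher in membrane than in cytosolic input in its leader and 5.40-fold in its coding sequence (ratio -1.26, adjusted p = 0.00307). HOL1 was 2.18-fold and 4.91-fold higher (-1.27, adjusted p = 0.004). SNQ2 was 0.899 of the cytosolic level in its leader and 3.97-fold higher in its coding sequence (-2.13, adjusted p = 5.08e-05). TRK1 fell by 1.78 in ratio, NCE102 by 1.71, WSC2 by 1.47, SNF3 by 1.33, SUN4 by 0.94, LEU4 by 0.92, UTH1 by 0.83 and SRL1 by 0.81. GCN4 did not pass the threshold (-0.06, adjusted p = 0.888).

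**Figure D5:**
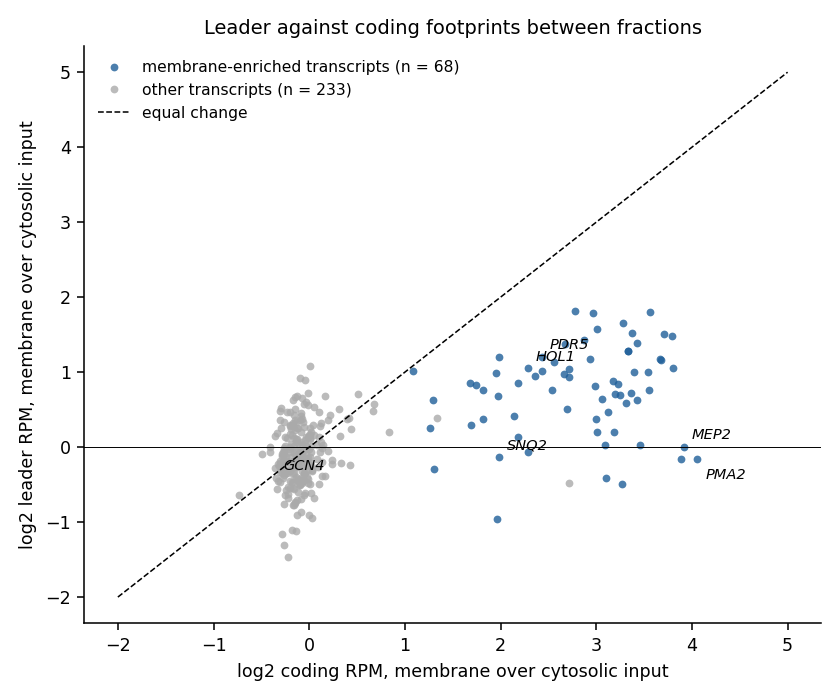
Log2 of membrane over cytosolic input for the leader (vertical axis) and the coding sequence (horizontal axis) of 301 clear members tested, with 0.1 RPM added. The membrane-enriched transcripts, chosen from another strain, lie below the dashed line of equal change, whereas the others gather around 0.

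The 8 rises at the membrane comprised 4 leaders over another coding sequence and 4 clear leaders. MRPL49 over PHS1 rose by 3.89, MSR1 over HXT4 by 3.12, CDC28 over IFA38 by 3.05 and PBP4 over SLC1 by 1.71, and HXT4, PHS1, IFA38 and SLC1 encode membrane proteins. MSR1, for example, had 29.0 and 27.5 RPM in membrane input, against 1.76 and 1.69 RPM in cytosolic input. The overlapping leaders YJR015W (over TMA22) and EUG1 (over GRH1) fell by 3.90 and 3.92. The clear leaders that rose were MDR1 (1.08), ESP1 (1.02), DGR2 (0.88) and HER1 (0.81), of which HER1 was named after its values were seen. Leader sums of MDR1, ESP1 and DGR2 were at most 0.124 RPM in cytosolic input, close to or under the limit of 3 reads.

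The change of the ratio with IP differed between fractions for 1 of the 356 members, MEP2, where 0.246% of all leaders tested were called higher and 0.0% lower, and 45 members had an unadjusted p below 0.05. MEP2 had 1.89 and 2.23 RPM in membrane IP, against 0.671 and 0.746 RPM in membrane input, and 1.88 and 1.72 RPM in cytosolic IP, against 0.516 and 0.893 RPM in cytosolic input. Its ratio rose by 2.79 at the membrane and by 0.63 in the cytosol, a difference of 2.16 on the log2 scale (adjusted p = 0.0164). The coding sum of MEP2 was 0.385 of input in membrane IP and 1.57-fold higher than input in cytosolic IP, while its leader was 2.91-fold and 2.56-fold higher. With cytosolic IP replicate 1 or 2, membrane input replicate 2, or membrane IP replicate 1 or 2 left out, 0 members were called (limma), and without cytosolic input replicate 1, cytosolic input replicate 2 or membrane input replicate 1 there were 5, 2 and 3 calls.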

How the data were processed

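The 8 HEL2-FTP libraries were deposited by the authors as RPM at each codon position, where reads are spread over the positions they cover; the deposited ratio per codon and the RPKM values were not used. Per the submitters' processing notes the build was sacCer3 and the tools named were CASAVA 1.8, UMI-tools, Bowtie2 and TopHat; their settings are not given in the sources used here. The other strains, SRP72p and GIT1p, were deposited by the authors as whole-number counts per gene (2015928 to 13093023 in all), used only to choose membrane-enriched transcripts.

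RPM were summed up to codon -10 (leader) and over the coding sequence. The worth of 1 read came from isolated runs of RPM in leaders, of which 92.6% to 95.7% were whole reads within 1%. Coordinates and symbols came from RefSeq's R64 table, which matched 5988 of 6663 transcripts and 2847 of 2856 members. Ratios were tested with limma 3.58.1 (intensity trend, all 4 groups in 1 fit, no replicate term) for transcripts with a mean of at least 1 RPM coding and 0.5 RPM leader. Adding 0.1 RPM shrinks the change of low leader sums, and it lowers their ratio wherever the coding sum rises. Without a minimum, 585 members were called lower in cytosolic IP with 0.1 RPM added, against 31 with the constant scaled to the coding level. Membrane-enriched transcripts came from edgeR 4.0.16 (quasi-likelihood, TMM, log2 change of at least 1, adjusted p below 0.05). The comparison was membrane against cytosolic SRP72p input. All SRP72p and GIT1p libraries were in 1 fit, so GIT1p libraries contributed to the spread used. Scripts were tested on simulated data. The library numbers and exact permutation tests limit p-values as stated, and limits of 3 reads cover counting error only.

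Members, lists and tests were chosen with earlier results of these data known. Named leaders are those of the uORF, near-cognate start and leader control lists, the 10 with the largest RPM, the 5 with the largest ratio and up to 5 called rises and falls per comparison. The top 15 clear leaders, the clear rises and falls, the copies RPL1A and RPL20B and the classes were added after values were seen. Alternatives covered the added constant, minimum, leader end, centring, block, coding ends, overlaps and each library in turn.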

Additional observations from a re-analysis of the deposited data

Results flagged for a closer look

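The IP/input change of the MEP2 leader over coding ratio differed between the membrane and the cytosol by 2.16 on the log2 scale (limma interaction contrast, adjusted p = 0.0164), and it was the only one of 356 members tested to pass. The call was lost when cytosolic IP replicate 1 or 2, membrane input replicate 2, or membrane IP replicate 1 or 2 was left out, each of which left no member called. It was also lost with 0.02 RPM added in place of 0.1 and with the added constant scaled to the coding level.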

How the results depend on the processing

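Calls of members numbered 171 (cytosol, IP over input), 176 (membrane, IP over input), 98 (inputs) and 1 (difference between fractions). Without a leader minimum they were 1491, 1505, 462 and 57, and in clear leaders without it 1449, 1459, 435 and 62; there the added 0.1 RPM exceeds most leaders. For leader RPM alone, with no division by coding RPM, they were 325, 311, 48 and 9. With the constant scaled to the coding level and no minimum, the cytosolic count was 351. The difference between fractions gave 36 calls with 0.5 RPM added, 0 with 0.02 RPM (limma; 45 members at unadjusted p below 0.05 with 0.1 RPM), 0 with the scaled constant and 3 up to codon -20.

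The summed ratio over all members, averaged over both fractions, was 1.30-fold. It was 3.03 without the 10 leaders with the largest RPM, 1.25 up to codon -20, 1.44 for a coding mean of at least 50 RPM, 1.60 without leaders over another coding sequence, 4.57 in clear leaders and 4.54 in clear leaders without their top 10. The median over members gave no value, because the median input ratio is 0.

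Leaving out each library gave 106 to 177 calls (cytosol), 105 to 189 (membrane), 86 to 100 (inputs), 0 to 5 (difference) and summed folds of 1.28 to 1.31. The membrane-enriched list held 693 to 911 transcripts, against 800.

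Replicate numbers are shared across groups, but nothing says that they pair libraries. Same-numbered libraries deviated together with r of 0.215 and 0.193 (IP and input, cytosol and membrane), 0.0702 (inputs) and 0.175 (IPs), over only 2 pairs each. With the replicate block the calls were 175, 185, 101 and 4.

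For leader RPM alone, signs turned as the coding change was no longer divided out. Membrane over cytosolic input became 1.02 in HOL1, 0.82 in LEU4, 1.01 in NCE102, 1.17 in PDR5, 0.046 in MEP2, 0.85 in UTH1, 0.39 in SUN4, 0.75 in TRK1, 1.09 in WSC2, 1.17 in SRL1 and 0.68 in SNF3. IP over input became -1.24 in MRP13, -0.72 in CPR3, -0.40 in TRX1, 1.77 in SNF3 and 0.32 in PPZ1 at the membrane, and -0.88 in CPR3, -0.37 in MRPL49, -0.34 in CDC28, 1.88 in SNF3, 3.48 in HKR1 and 0.98 in PPZ1 in the cytosol. With 0.5 RPM added, ESP1 gave -0.53 and DGR2 -0.35 in the cytosol. Of all values of single leaders under the alternatives, 4145 kept direction and side of the threshold, 215 were no longer called, 99 became called and 197 values without a call at the main settings changed sign.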

Other observations

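Positions beyond the stop codon gave a different picture from the leaders of the same 2768 transcripts, which were chosen for clear leaders only. Footprints 10 or more codons past the stop were 0.0425% and 0.0426% of the coding RPM in cytosolic IP, against 0.0492% and 0.0455% in cytosolic input. At the membrane they were 0.0406% and 0.0371% in IP, against 0.0448% and 0.0416% in input. Every IP library was below both inputs of its fraction there, whereas every IP library was above both inputs in the leaders. No test was run on the trailing positions. Their overlap with other genes was not checked. Among leaders, those over another coding sequence were also lower in IP, at 0.469 of input in the cytosol and 0.506 at the membrane. Whether overlap lowers the trailing share in IP was not tested. The trailing share was also not set against the coding change of the same messages, as was done for leaders.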
